A study of Homo sapiens with 4 samples.

Results

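The genes described here are 10 immediate early and short-lived mRNA genes: FOS, JUN, JUNB, JUND, EGR1, IER2, IER3, IER5, ZFP36 and MCL1. They were followed through a map of N6-methyladenosine (m6A), a methylated adenosine of RNA, in H1 cells, an established human embryonic stem cell line. A region belonged to a gene of this set when its annotated transcript was of that gene, when that gene had the nearest start site, or when the region overlapped the gene body. These rules took 8 of the 9900 deposited regions, and 6 of the 8 lay over the body of 1 of the 10 genes. The other 2 were tied to IER2 only through its start site and lay in CACNA1A.

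The study pulled down RNA with an m6A antibody from wild-type cells without any other genotype or treatment in the groups used here. There were 4 libraries of total RNA, 2 from the pull-down and 2 of input. The files held 1 set of region positions for all of them, with no height, depth or value per library, so differences between replicates were not measurable. RNA levels were not in the files either. Where no region was called, m6A may therefore be absent or may have gone undetected, and the identity of the cells was not checked by marker genes. Shares are given with exact 95% binomial intervals (Clopper-Pearson), which hold no error other than that of counting.

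Immediate early genes are transcribed within minutes of a growth factor or stress signal, through transcription factors that are already present, and their mRNAs are degraded soon afterwards. Many of these mRNAs carry AU-rich elements that recruit decay factors, and m6A is known as a further mark that reader proteins can use to set how long an mRNA lasts. FOS, JUN, JUNB and JUND encode subunits of the AP-1 transcription factor, EGR1 a zinc finger transcription factor, and ZFP36 (tristetraprolin) a protein that binds AU-rich elements and promotes deadenylation. MCL1 encodes an anti-apoptotic BCL2 relative with a short-lived mRNA and protein.

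An m6A region lay over 6 of the 10 genes, each time centred in an exon. JUN, JUND, IER2, IER5, ZFP36 and MCL1 each held 1 region, and FOS, JUNB, EGR1 and IER3 held none. The share was 6 of 10 (60.0%, interval 26.2 to 87.8%), against 2569 of all 20056 protein-coding genes (12.8%). With regions up to 2 kb alone, 3 of the 10 genes (30.0%, interval 6.67 to 65.2%) held an exonic region, namely IER5, JUND and ZFP36, against 10.4% of protein-coding genes. The interval of that smaller count takes in the share of all protein-coding genes. All 10 are short genes, with bodies of 1349 to 5053 bp and a median of 3330 bp, against a median of 24092.5 bp over protein-coding genes. Among the 2448 protein-coding genes of that length range, 219 (8.95%) held an exonic region. By any overlap of the gene body, the same 6 of 10 genes held a region, against 30.2% of all protein-coding genes and 17.2% of those in the length range. By nearest start site the count was again 6 of 10, against 26.3%. The 10 genes were chosen with earlier results of these data known, so these shares and their intervals describe the set and were not tested.

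**Figure D1:**
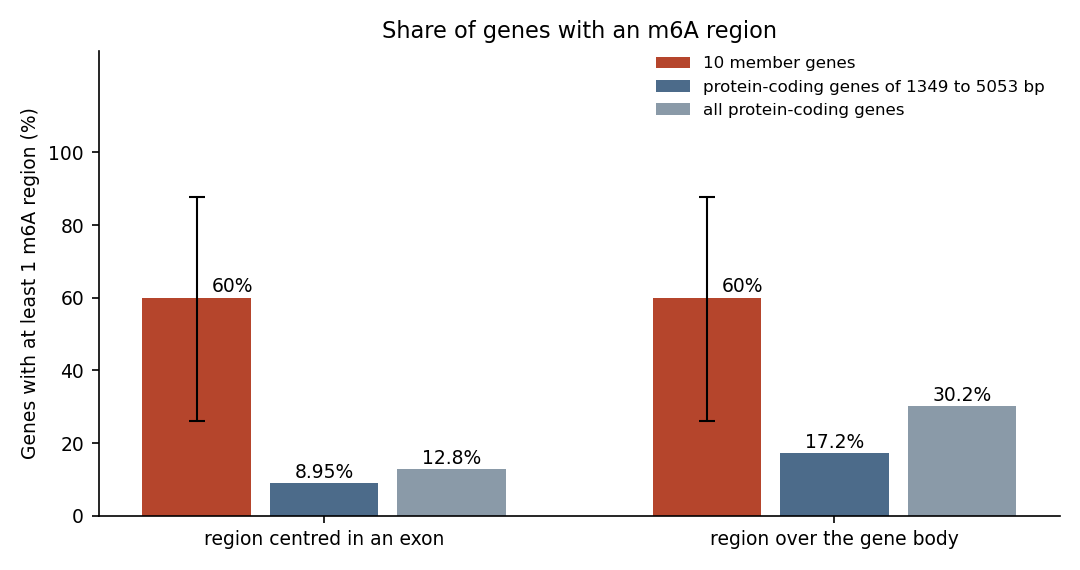
Share of genes with at least 1 m6A region, in percent, for the 10 immediate early and short-lived genes (red, with exact 95% intervals), protein-coding genes of 1349 to 5053 bp (blue) and all protein-coding genes (grey), by a region centred in an exon (left) and by any overlap of the gene body (right). The red bars stand at 60.0% under both rules, against 8.95% (blue) and 12.8% (grey) on the left and 17.2% and 30.2% on the right. The genes were chosen with earlier results of these data known, so the intervals describe the counts and are not a test. With regions up to 2 kb alone, not drawn, the exonic share was 30.0% (interval 6.67 to 65.2%), against 10.4% of protein-coding genes.

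The AP-1 genes did not share 1 pattern. JUN, whose protein pairs with FOS proteins to form AP-1, held a region 2220 bp wide (hg38, chromosome 1, positions 58781792 to 58784011), centred in the coding part of exon 1 of 1 of its transcript. It ran from base 37 to base 2256 of the 3257 bp gene and so covered 68.2% of the body, leaving the last 1001 bp outside. JUND, a JUN relative that in many cells is expressed without stimulation, held a narrower one of 928 bp (chromosome 19, positions 18279960 to 18280887), labelled 3' UTR. It ran from base 736 to base 1663 of 1929 bp, covering 48.1% of the body and ending 266 bp before the gene's end. The JUN region thus took in nearly the whole 5' part of the gene, whereas that of JUND was centred beyond the middle, at 62.1% of the body. JUNB, the remaining JUN family gene (chromosome 19, positions 12791486 to 12793315), held none, and its nearest region was 32517 bp away in an intron of RTBDN, at an AluSx1 repeat. The JUNB body overlaps that of HOOK2, so reads there could belong to either gene.

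FOS, the partner of the JUN proteins and the most often used marker of immediate early transcription, held no region in its 3403 bp body (chromosome 14, positions 75278828 to 75282230). The nearest region was 151808 bp away, 2830 bp wide and in an intron of NEK9, a kinase gene. That was the longest such distance among the 4 genes without a region. EGR1, a factor induced along with FOS in many cell types, held none in its 3825 bp body (chromosome 5, positions 138465479 to 138469303). Its nearest region was 929 bp wide and lay 38162 bp away in a non-coding exon of ETF1, a translation termination factor gene. All 4 genes without a region had regions in their neighbourhood. Within 1 Mb on each side there were 13 for FOS, 30 for JUNB, 10 for EGR1 and 25 for IER3. The count was 7 to 30 for the 6 genes with a region, their own region included, so the 2 ranges overlapped.

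The IER genes, named for immediate early response, were mixed as well. IER2, a nuclear protein gene, held one 2140 bp wide (chromosome 19, positions 13152234 to 13154373), centred in the coding part of exon 2 of 2. It began 1823 bp after the start site and ended 538 bp before the end of the gene, covering 47.5% of 4501 bp. IER5, which encodes a regulator of heat shock factor 1, held one 1308 bp wide (chromosome 1, positions 181089346 to 181090653), labelled 3' UTR in exon 1 of 1. It covered 31.1% of the 4201 bp body, the lowest share of the 6, and ended 2247 bp before the gene's end. IER3, a stress-induced gene of the major histocompatibility region (chromosome 6, positions 30743199 to 30744547), held none and was the shortest of the 10 at 1349 bp. Its body overlaps the antisense gene IER3-AS1, and its nearest region was 57280 bp away in exon 1 of 3 of PPP1R18.

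Naming by the nearest start site added 2 regions to IER2 that the transcripts place elsewhere. The first was 1109 bp wide (chromosome 19, positions 13206597 to 13207705) and lay in the 3' UTR (exon 47 of 47) of CACNA1A, a calcium channel gene. Its centre was 56740 bp downstream of the IER2 start site. The second, 12865 bp wide, was centred 142680 bp from that site in intron 19 of 46 of CACNA1A. Neither overlapped the IER2 gene, so both were left out of the values for IER2.

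ZFP36 and MCL1 resembled JUN in where their regions began. ZFP36, which promotes the decay of AU-rich mRNAs, its own included, held one 1741 bp wide (chromosome 19, positions 39406885 to 39408625), centred in the coding part of exon 2 of 2. It ran from base 39 to base 1779 of 2561 bp, covering 68.0% of the body. MCL1 held the widest region of the set, 2437 bp (chromosome 1, positions 150577053 to 150579489), centred in a coding exon, the third of 4 in the transcript named. It ran from base 122 to base 2558 of 5053 bp, covering 48.2% and leaving the last 2495 bp outside. In JUN, ZFP36 and MCL1 the region therefore began within 1.11 to 2.39% of the body length from the start site, against 15.4% in IER5, 38.1% in JUND and 40.5% in IER2.

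**Figure D2:**
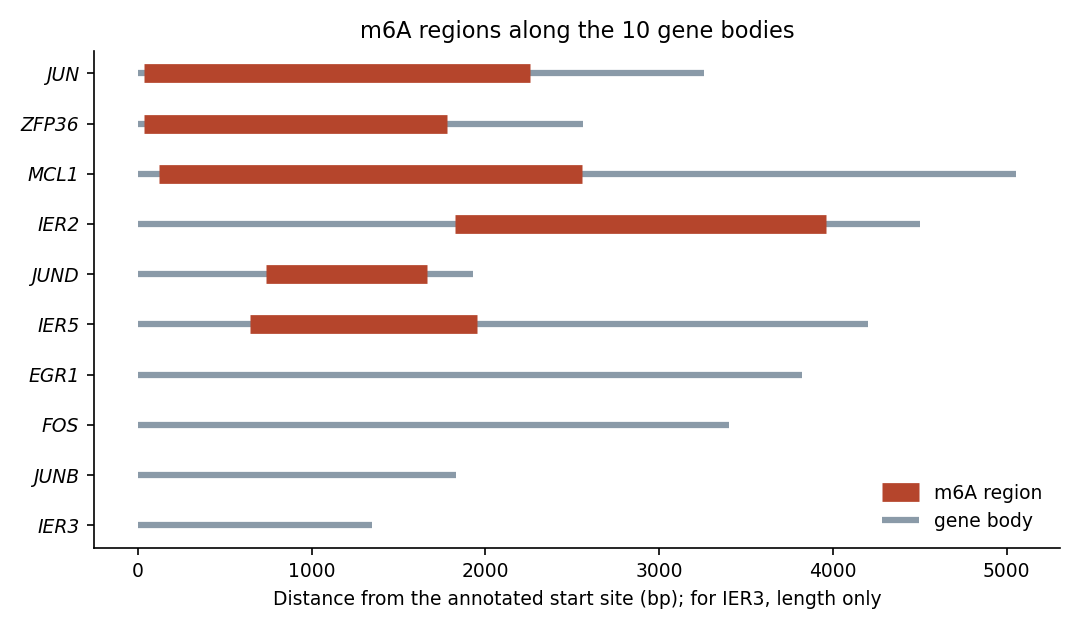
The 10 gene bodies (grey lines) and their m6A regions (red bars), drawn to scale in base pairs from the annotated start site; the 4 genes at the bottom, EGR1, FOS, JUNB and IER3, have no region. The regions of JUN, ZFP36 and MCL1 begin 36, 38 and 121 bp after the start site and that of IER2 begins 1823 bp after it; none reaches the end of its gene.

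The 5' edges of the JUN and ZFP36 regions fell inside the first transcribed bases that RefSeq places after the start site on GRCh38.p14. They are shown because they locate where the deposited regions begin, with the bases inside the region in capitals. The JUN stretch is chr1:58783998-58784027 on the minus strand, bases 21 to 50 of the transcript, and the ZFP36 stretch is chr19:39406867-39406896 on the plus strand, bases 21 to 50.
JUN: tggctgaagcagcgagGCGGGAGTGGAGGT
ZFP36: actctcggccgacaccccTCATGGCCAACC
The m6A consensus has GGAC as its most common core, and these letters occurred in neither stretch. Only 14 bases of the JUN stretch and 12 of the ZFP36 stretch are inside the region, too few for this absence to say anything about m6A. They stood in the first 50 transcribed bases of 2 of the 8 genes with a window in the promoter table, JUNB at bases 2 to 5 and IER5 at bases 12 to 15, and in 19.8% of 22199 such windows of protein-coding genes. JUNB held no region, and the IER5 region began at base 647. The search took the transcribed strand only. The rest of each region was not searched, since the sequence under it was not used here.

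All 6 regions lay wholly inside their gene, and none met another gene of the RefSeq table. Among 161 other genes of 1349 to 5053 bp with a single exonic region centred in the body and a known strand, 149 (92.5%) had the region wholly inside. In 27 of these 161 genes (16.8%) the region began within 50 bp after the start site, as it did in 2 of the 6 genes of the set, JUN and ZFP36. The centres of the 6 regions stood at 26.5 to 64.3% of the body from the start site with a median of 35.4%, against a median of 48.3% and quartiles of 34.6 and 64.3% in the 161 other genes. The 2 distributions overlapped, with JUND (62.1%) and IER2 (64.3%) above the median of the other genes and JUN (35.2%), ZFP36 (35.5%), IER5 (30.9%) and MCL1 (26.5%) below it. The distance from the region's end to the end of the gene was 266 to 2495 bp with a median of 891.5 bp, against a median of 707 bp in the other genes. These distances are along the genome and count introns, and the position of the stop codon was not analysed here.

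**Figure D3:**
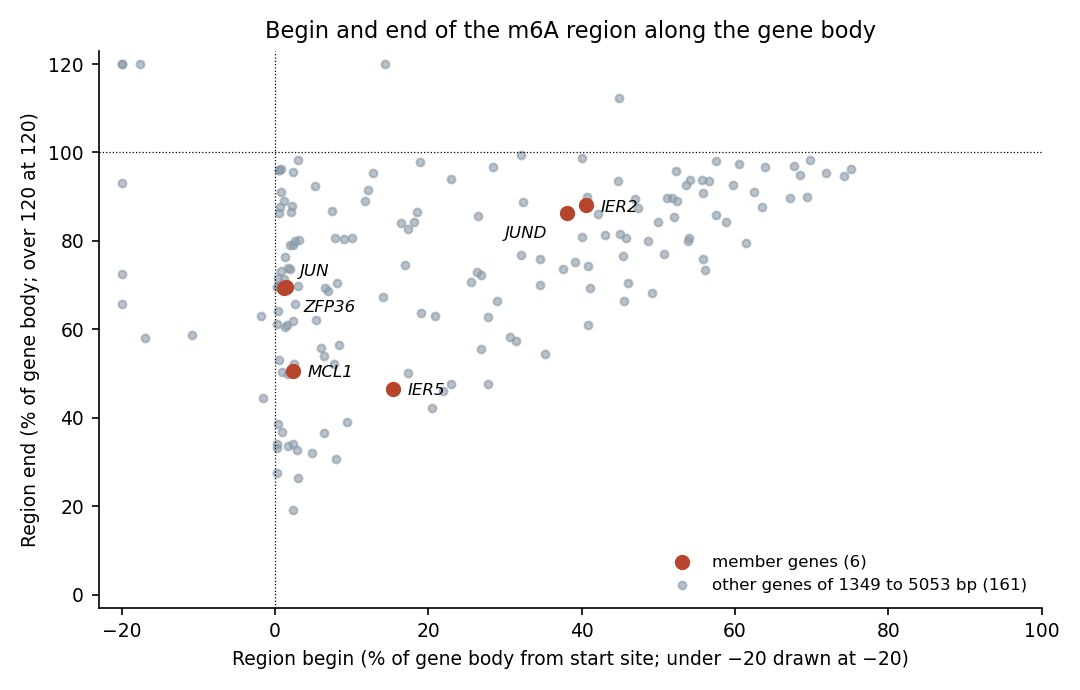
Begin (x axis) and end (y axis) of the m6A region in percent of the gene body, counted from the start site, for the 6 genes of the set with a region (red) and 161 other protein-coding genes of 1349 to 5053 bp (grey); dotted lines mark the start site and the end of the gene, and values beyond the axes are drawn at their edge. JUN and ZFP36 nearly coincide, beginning at 1.11 and 1.48% and ending at 69.3 and 69.5%, and JUND and IER2 lie close together at 38.1 and 40.5% and at 86.2 and 88.0%.

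By the labels given to the centres, 4 of the 6 regions were in coding exons and 2 in 3' UTRs, with none in a 5' UTR or a non-coding exon. Among the 3055 other exonic regions, 62.5% were in coding exons, 23.0% in 3' UTRs, 2.42% in 5' UTRs and 12.1% in non-coding exons. The transcript had 1 exon in 3 of the 6 (JUN, JUND and IER5), against 7.82% of the other exonic regions. Those other regions come from genes of every length, and this share was not compared among short genes alone. In ZFP36 and IER2 the exon was the last of 2. In 5 of 6 the centre was therefore in the last or sole exon, against 70.4% of the other exonic regions, and MCL1 was the exception. The exon counts are those of the transcripts that HOMER named.

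In 5 of the 6 genes the region was wider than the median exonic region. The widths were 2437 bp in MCL1, 2220 bp in JUN, 2140 bp in IER2, 1741 bp in ZFP36, 1308 bp in IER5 and 928 bp in JUND. The median was 1940.5 bp, against 1293 bp over the 3055 other exonic regions and 1527 bp over all 9900 regions. Those other regions come from genes of every length, and widths were not compared among short genes alone. MCL1, JUN and IER2 were wider than 89.2, 85.4 and 83.4% of all exonic regions, ZFP36 than 71.9%, IER5 than 51.0% and JUND than 17.8%. Together the 6 regions spanned 10774 of the 31909 bases of the 10 gene bodies (33.8%).

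**Figure D4:**
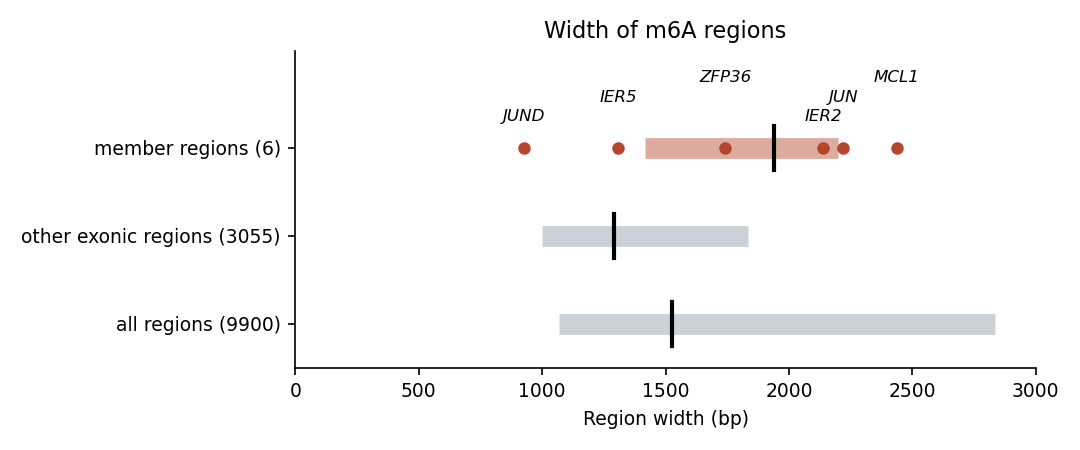
Width of m6A regions in base pairs: the 6 regions of the set (red points, named), the 3055 other exonic regions and all 9900 regions, with the quartiles as bars and the median as a black line. MCL1, JUN and IER2 (2437, 2220 and 2140 bp) lie above the upper quartile of the other exonic regions, 1832.5 bp, and JUND (928 bp) lies below the lower one, 999.5 bp.

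The share of the gene body inside a region was 31.1 to 68.2% in the 6 genes, with a median of 48.2%. In 213 other genes of the same length range with an exonic region it had a median of 46.7% and quartiles of 32.0 and 66.7%, so JUN and ZFP36 lay just above the upper quartile, IER5 just below the lower one and the other 3 genes between them. Within the set ZFP36 (68.0%) was nearest to JUN (68.2%) by this share, and outside it the nearest protein-coding genes of 1 to 10 kb were SLC61A1 (68.2%), CHST14 (68.0%), CCDC8 (67.9%), FKBPL (67.8%) and MAGEE1 (67.6%). That measure rests on 1 region set and compares only how much of a body was covered.

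Among the promoters searched, matches to known promoter motifs differed from gene to gene, and IER5 had none. The stretches below are the last 110 bases before the start site on GRCh38.p14 from RefSeq, 1 gene with an m6A region (JUN) and 2 without (FOS and EGR1), with the matches in capitals. They are chr1:58784048-58784157 on the minus strand for JUN, chr14:75278718-75278827 on the plus strand for FOS and chr5:138465369-138465478 on the plus strand for EGR1.
JUN: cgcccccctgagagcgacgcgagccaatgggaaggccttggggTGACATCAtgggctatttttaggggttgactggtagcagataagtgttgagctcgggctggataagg
FOS: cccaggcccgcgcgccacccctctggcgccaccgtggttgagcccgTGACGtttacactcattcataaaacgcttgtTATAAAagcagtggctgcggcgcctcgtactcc
EGR1: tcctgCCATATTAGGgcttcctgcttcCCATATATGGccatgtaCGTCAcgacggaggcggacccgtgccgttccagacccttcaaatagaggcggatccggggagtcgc

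Windows from 250 bases before to 50 after the start site were in the RefSeq table for 8 of the 10 genes, all but IER3 and MCL1, and each motif was searched on both strands. The CArG box, the site of serum response factor, occurred in 1 of 8 windows, that of EGR1, where it stood at -105 to -96 and at -83 to -74, and in 1.25% of 22199 windows of protein-coding genes. TGACNTCA, which covers the cyclic AMP response element and the variant AP-1 site of the JUN promoter, occurred in 3 of 8, JUN at -67 to -60, JUND at -200 to -193 and ZFP36 at 5 to 12, against 6.83% of all windows. The ZFP36 match, TGACTTCA, is neither of these elements and lies after the start site. TGACG, the core of the cyclic AMP response element, which overlaps TGACNTCA in JUND, occurred in 6 of 8, all but IER5 and ZFP36, against 27.9%. TATAAA occurred in 2 of 8, FOS at -33 to -28 and JUNB at -31 to -26, against 9.47%, and TGANTCA, the canonical AP-1 site, in none of 8 against 6.15%. TGACG was found in 3 genes with an m6A region (JUN, JUND and IER2) and in 3 without (FOS, JUNB and EGR1). These matches are letters in a window and no binding was measured here. G and C made up 62.0% (JUN) to 77.0% (JUND) of the bases in these promoters, against a median of 62.3% over protein-coding promoters. Only JUN lay below that median. The motif shares were not adjusted for base composition, and whether it bears on them was not tested. Bases further than 250 before the start site were not searched, so a motif missing from a window may still stand beyond it.

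Related genes were counted in the same way. An exonic region was present in 9 of 35 other immediate early and short-lived genes (25.7%, interval 12.5 to 43.3%). That interval takes in the 12.8% of all protein-coding genes with an exonic region. GADD45B, a stress response gene, held a region of 2036 bp that covered 95.5% of its body. PPP1R15A, a subunit of the phosphatase that acts on eIF2 alpha, held 2065 bp (56.8% of the body), ARC, an activity-regulated gene of neurons, 1755 bp (51.2%), and RHOB, a small GTPase gene, 1544 bp (65.2%). ATF3, a stress-induced bZIP factor, and the antiproliferative BTG1 and BTG2 held none in exons. The list, like the others here, was written with earlier results of these data known.

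Close relatives by family were counted next, beside the 12.8% of all protein-coding genes with an exonic region. The intervals of these lists all take in that share. Of 14 other AP-1 and ATF bZIP genes, 2 held an exonic region (14.3%, interval 1.78 to 42.8%): MAF with 996 bp and JDP2, whose protein dimerises with JUN, with 910 bp in the last of 4 exons. ATF2, ATF3 and ATF7 held none. None of the 5 other EGR and NAB corepressor genes held one (interval up to 52.2%), EGR2, EGR3 and EGR4 included. No region lay anywhere over their bodies, whereas 30.2% of protein-coding genes had a region there. An absence in 5 genes does not set the family apart. Of 4 other IER and SERTA domain genes, SERTAD2 (1466 bp) and SERTAD3 (997 bp) held an exonic region and IER5L and SERTAD1 did not (interval 6.76 to 93.2%).

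The decay and survival pathways of ZFP36 and MCL1 were each counted, beside the 12.8% of all protein-coding genes with an exonic region. The intervals of both lists take in that share. Of 14 other genes for AU-rich element binding and deadenylation, 1 held an exonic region (7.14%, interval 0.181 to 33.9%), CNOT2, a subunit of the CCR4-NOT deadenylase, with 834 bp. CNOT1, CNOT3 and CNOT6 held none. Of 15 other BCL2 family genes, 4 did (26.7%, interval 7.79 to 55.1%). BCL2, the founding anti-apoptotic member, held 2, of 1749 bp in its 3' UTR and 1163 bp in its 5' UTR, and the pro-apoptotic BMF, BOK and BBC3 held 2410, 879 and 850 bp, each in a 3' UTR. BAD, BAK1 and BAX held none. MCL1, by contrast, had its region centred in a coding exon.

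Of 19 upstream genes of the MAPK and serum response factor pathway, 3 held an exonic region (15.8%, interval 3.38 to 39.6%). These were MRTFB, a coactivator of serum response factor, with 882 and 1103 bp, MAPKAPK2, a kinase that phosphorylates ZFP36, with 1691 bp in exon 10 of 10, and ELK4, an ETS partner of serum response factor, with 1677 bp in exon 3 of 3. BRAF, CREB1 and ELK1 held none. The interval of this list takes in the 12.8% of all protein-coding genes. Over the 7 lists together, 21 of 104 genes (20.2%) held an exonic region and 38 (36.5%) a region anywhere over the body, against 12.8 and 30.2% of protein-coding genes.

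**Figure D5:**
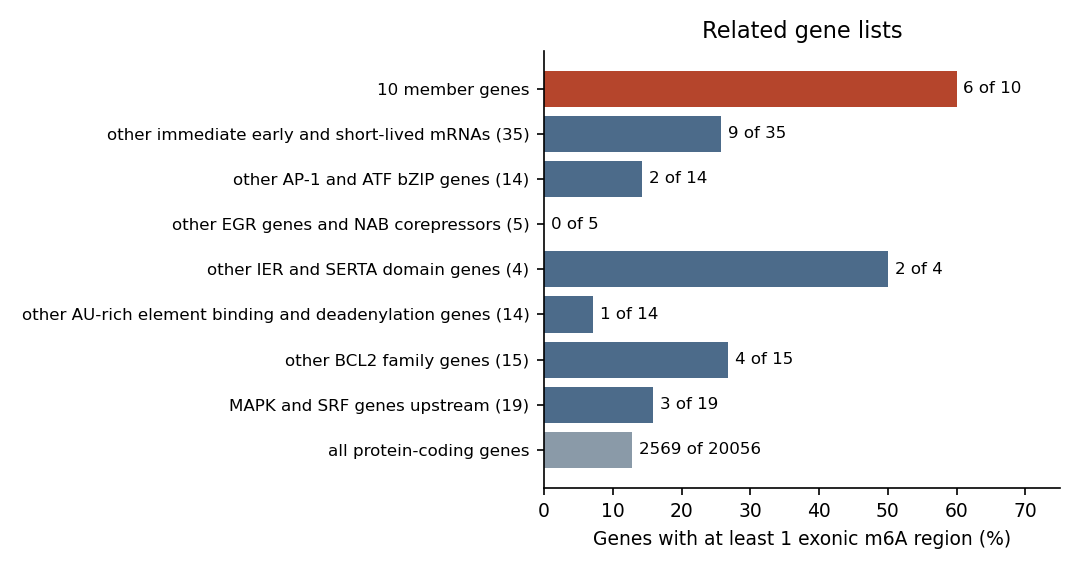
Share of genes with at least 1 exonic m6A region, in percent, for the 10 immediate early and short-lived genes (red), the 7 related lists (blue, with the number of genes) and all protein-coding genes (grey); counts stand beside the bars. The red bar is at 60.0%, the highest of the lists is that of the IER and SERTA genes with 2 of 4 genes, and the grey bar is at 12.8%.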

How the data were processed

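Per the submitters' processing notes, HISAT2 2.2.1 and MACS2 2.2.7.1 were used on hg38, with Trim Galore 0.6.7, HOMER, bedtools 2.30.0 and SAMtools 1.6. Settings, order and what was intersected are not given in the sources used here. Deposited by the authors were positions in base pairs, with no signal or score used here: 9900 regions and a HOMER annotation of the same 9900 (the annotation's starts are counted from 1). Per the file names the set is an intersection of MACS2 peaks. Groups came from the sample titles, and nothing states whether replicates were separate cultures.

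Features were HOMER's for each region centre; exonic means a coding, UTR or non-coding exon. Host genes came from matching the annotated transcript to RefSeq (GRCh38.p14); 3034 of 3061 exonic regions matched, as did all 10 genes. Strand came from the RefSeq promoter table, or for MCL1 from the start site its distance gives. That start site equalled the table's in all 6 genes, but the MCL1 strand was chosen by this match, so MCL1 is no check. No test was run. Scripts (Python 3.11.15, pandas 2.3.3, SciPy 1.17.1) were tried on 200 genes given known regions. Members and lists were chosen with earlier results of these data known. Named were all 10 genes; per list up to 4 with most exonic regions, then bases, and up to 3 without, alphabetically; and the 5 genes outside the set nearest to its highest body coverage. HOOK2, RTBDN, NEK9, ETF1, PPP1R18, CACNA1A and IER3-AS1 were named after their positions were seen.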

Additional observations from a re-analysis of the deposited data

How the results depend on the processing

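Of 22 alternatives, 19 left their result within its limits. These limits were 1.5 times for counts, the exact interval for the difference in shares, and 10% for the median width and the share of bases. The exceptions were the restriction to regions up to 2 kb, which took JUN, IER2 and MCL1 out by construction. It left 3 genes with an exonic region and 3 with a region over the body, in place of 6, and 12.5% of the bodies inside a region, in place of 33.8%. The excess over other protein-coding genes, 47.2 percentage points, ran between 19.6 points with regions up to 2 kb and 57.7 points among genes with a region, where the 6 genes count by definition; it was 29.8 points by any overlap of the body. The median width was also taken with the 2 regions in CACNA1A, an alternative chosen after seeing the data, and stayed at 1940.5 bp. No paired analysis was possible because the files hold 1 region set and no value per library, and for the same reason no replicate could be left out. How far depth or RNA level limits these shares is unknown.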
